A study of Mus musculus with 6 samples.

Results

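The genes of cholesterol synthesis and its SREBP control described here are 31 named mouse genes, taken by symbol from the 27179 genes of the deposited counts. All 31 were matched to a row through their Entrez Gene ID. Of them, 30 had a mean of at least 100 normalized counts and were tested, as part of the 11934 genes with such a mean. The remaining member, Abcg1, is described from its counts. The RNA-seq experiment compared 3 immortalized mouse embryonic fibroblast (MEF) lines of the strain C57BL/6, with 2 libraries per line. All of these lines are Per1-/- and Per2-/-. Cry/Per_KO cells also carry Cry1-/- and Cry2-/-, Per/Nr1d_KO cells carry Nr1d1-/- and Nr1d2-/-, and Cry/Per/Nr1d_KO cells carry all of these mutations. CRY and PER are the repressors of the circadian activator CLOCK-BMAL1, and NR1D1 and NR1D2 are nuclear receptors that repress Bmal1. The study asked how endogenous NR1D (in Cry/Per_KO) and endogenous CRY (in Per/Nr1d_KO) affect the transcriptome in the absence of the other proteins.

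Cry/Per/Nr1d_KO is a single clone, made by CRISPR mutation of Nr1d1 and Nr1d2 in Cry/Per_KO cells. The 2 libraries of a line are independent RNA preparations of unsynchronized cells in medium with serum, so the p-values measure the spread between preparations of a line, and an effect of the genotype cannot be told apart from other differences between lines. For 2 of the 3 pairs, the genotype label of a library contradicts the name of its deposited counts, with Cry/Per_KO in one and Cry/Per/Nr1d_KO in the other. The titles of one of these pairs, which has the Cry/Per/Nr1d_KO genotype, are garbled and end like those of Per/Nr1d_KO. The genotype labels were used here, and the pairs are called the CPN-labelled (Cry/Per/Nr1d_KO) and the CP-labelled (Cry/Per_KO) libraries. If the other names are right, each value below belongs to the other of these lines, every difference between the 2 pairs changes its sign, and the comparisons of Per/Nr1d_KO with each pair trade places. The targeted genes Cry1, Cry2, Per1, Per2, Nr1d1 and Nr1d2 had RNA in every library, between 1004 and 9337 normalized counts, so no line can be told by a missing transcript. Their levels did differ between the pairs. Cry1, a gene that NR1D is known to repress, had 1698 and 1724 normalized counts in the CPN-labelled libraries and 5323 and 5478 in the CP-labelled ones (log2 fold change 1.66, called), and was thus higher in the pair labelled as having NR1D. Nr1d1 (1.56), Per1 (0.90), Nr1d2 (0.65), Per2 (0.45) and Cry2 (0.22) were also higher in the CP-labelled pair, the first 2 of them called. Nr1d1 and Nr1d2, which CRY is known to hold down, were lower in Per/Nr1d_KO than in the CP-labelled pair (-0.87, called, and -0.53) but not than in the CPN-labelled pair (0.69 and 0.12). The last value turned to -0.40 with the chromosome 14 median of 0.52 subtracted. The levels of Cry1 and Nr1d1 go against the genotype labels and with the names of the deposited counts, so every direction below that rests on which of these pairs is Cry/Per_KO is in doubt.

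Library totals ran from 53764390 to 85927236 counts. Normalized counts are counts scaled by TMM (edgeR) to the mean effective size of a library. A gene was called higher or lower where its adjusted p (quasi-likelihood test of edgeR, Benjamini-Hochberg over all genes tested) was under 0.05 and its log2 fold change lay beyond 0.81 in either direction, the limit on the fold. Of the 9 fibroblast markers, 8 had a mean above 100 normalized counts and Thy1 was at or near 0 in every library. Their summed level ran from 947813 to 998097 in the CPN-labelled libraries, from 867198 to 888581 in the CP-labelled ones and from 1713450 to 1731070 in Per/Nr1d_KO, and its part in the results was not tested. In Per/Nr1d_KO against the CPN-labelled libraries, Col1a1 (1.51), Col1a2 (0.91), Col3a1 (5.72) and Fn1 (0.91) were called higher. Vim (-0.87), Pdgfra (-1.61), Pdgfrb (-1.33) and S100a4 (-2.83) were called lower in the same comparison. In the CP-labelled libraries against the CPN-labelled ones, only Col3a1 (-1.49) and S100a4 (-1.14) of these 8 were called, both lower. S100a4 was -0.49 and not called with the chromosome 3 median subtracted. The median log2 fold change of all genes tested lay between -0.0033 and 0.035 in the 3 comparisons, but genes of single chromosomes were shifted together, for example by -0.65 on chromosome 3 in the CP-labelled libraries against the CPN-labelled ones and by -0.84 on chromosome 9 in Per/Nr1d_KO against the CP-labelled ones. The median of its chromosome is given beside a member where subtracting it changed a call, a direction or the size of a value the text turns on, and the part of these shifts in the results was not tested. RNA came from whole cultures, so less RNA per cell and fewer cells with the RNA cannot be told apart.

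Cells make cholesterol from acetyl-CoA through mevalonate, squalene and lanosterol. The transcription factor SREBP-2, encoded by Srebf2, activates nearly every enzyme of this route, while SREBP-1, encoded by Srebf1, acts more on fatty acid synthesis. Both are held in the endoplasmic reticulum by SCAP and the INSIG proteins when sterols are abundant, and are carried to the Golgi and cut into active factors when sterols are scarce. Surplus sterol is instead sensed by the liver X receptors (LXR), which raise genes of sterol export.

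Most of the members had their highest RNA level in the CPN-labelled libraries. Both of these libraries lay above all 4 others for 25 of the 30 members tested (83.3%), against 21.1% of all genes tested. In the CP-labelled libraries, 16 members were called lower and 0 higher than in the CPN-labelled ones. Of all genes tested, 8.95% were called lower and 7.86% higher in this comparison. Tested against the limit on the fold itself (glmTreat of edgeR), 8 members were called lower, against 796 of the 11934 genes tested. Without the limit on the fold, 26 members were lower and 2 higher (Scap and Insig2), against 38.3% and 38.1% of all genes tested. In Per/Nr1d_KO, 9 members were called lower and 0 higher than in the CPN-labelled libraries, where 9.35% of all genes tested were called lower and 11.3% higher. Here 26 members were lower and 3 higher (Srebf1, Insig2 and Abca1) without the limit on the fold, against 37.1% and 38.7%. The median log2 fold change of the members was -0.87 and -0.60 in these comparisons, against -0.0033 and 0.011 for all genes tested. Both comparisons use the CPN-labelled libraries and are not independent of each other. Between Per/Nr1d_KO and the CP-labelled libraries, only Fdps, Dhcr7 (both higher in Per/Nr1d_KO) and Sc5d (lower) were called, 2 and 1 of 30 members, against 15.2% of all genes tested called higher and 13.8% called lower. Without the limit on the fold, 14 members were higher and 9 lower in this comparison, against 42.8% and 39.3%. Both CP-labelled libraries lay below all 4 others for 17 of the 30 members (56.7%), against 3705 of the 11934 genes tested, and above them for 2 members (Scap and Insig2), against 29.7%. Per/Nr1d_KO lay below all 4 others for 9 members and above them for 2 (Srebf1 and Abca1), against 30.2% and 32.7%. With the other reading of the labels, the highest pair is Cry/Per_KO, the 16 members are higher in Cry/Per_KO than in Cry/Per/Nr1d_KO, and Fdps, Dhcr7 and Sc5d are the 3 members called between Per/Nr1d_KO and Cry/Per/Nr1d_KO.

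**Figure D1:**
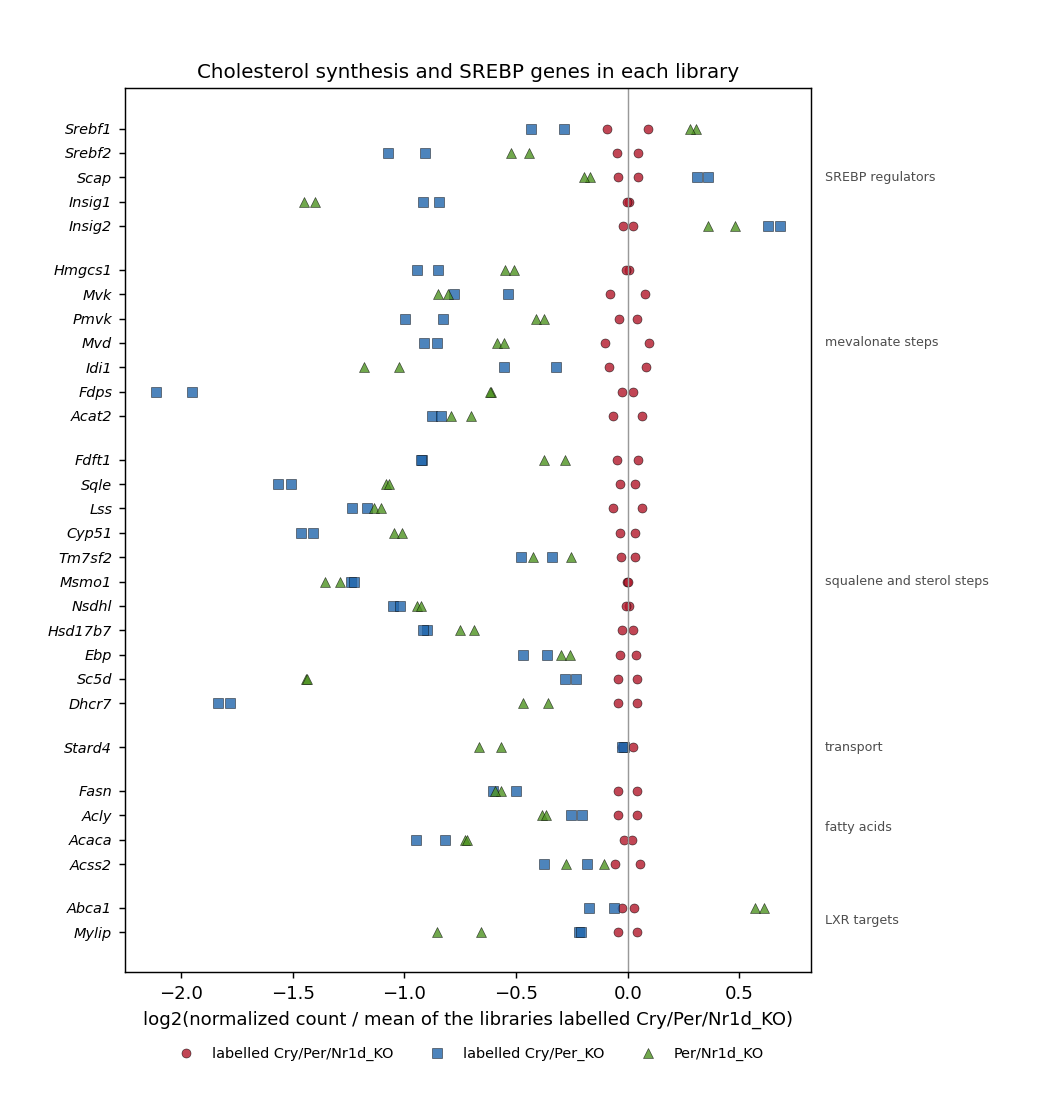
Normalized count of each of the 30 members tested in each of the 6 libraries, as the log2 ratio to the mean of the 2 CPN-labelled libraries (x axis); each point is 1 library, and the members are grouped by role. The points of the CP-labelled libraries and of Per/Nr1d_KO lie to the left of the CPN-labelled ones for all 18 enzymes of the mevalonate and of the squalene and sterol steps, while Insig2 lies to the right.

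**Figure D2:**
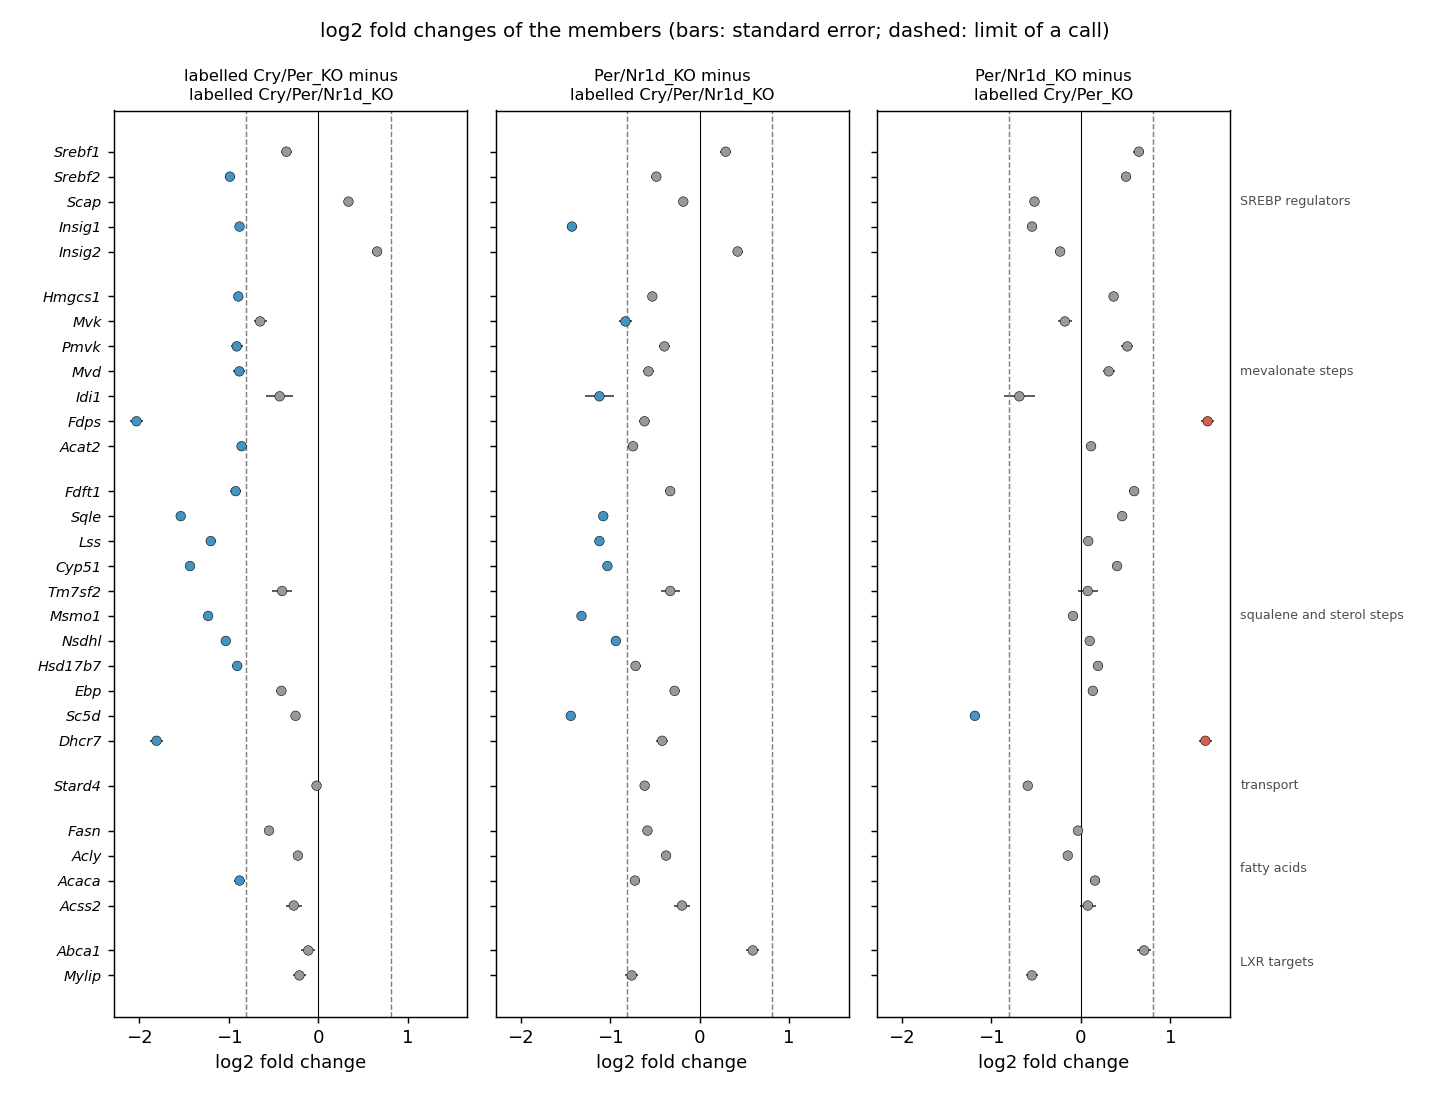
Log2 fold change (x axis) of the 30 members in the 3 comparisons, with bars for the standard error and dashed lines at the limit on the fold; blue points were called lower, red points higher and grey points neither (edgeR's quasi-likelihood test, 2 libraries per line). The panels show 16, 9 and 1 members called lower, and red points only for Fdps and Dhcr7 in Per/Nr1d_KO against the CP-labelled libraries.

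Since most of the members moved together, the promoters of the members were examined for short sequences known from sterol-regulated genes. SREBP binds the sterol regulatory element (SRE), often together with NF-Y, which binds CCAAT, and SREBP as well as CLOCK-BMAL1 can bind the E-box CACGTG. RefSeq promoters of GRCm38.p6, from 250 bases before to 50 bases after a start site, were found for 26 of the 31 members in 34 windows. Fdps, Fdft1, Sqle, Stard4 and Abcg1 had no entry. The 250 bases before the start site are shown for 5 members that cover the regulators, the mevalonate steps and the sterol steps, and that show how the matches are placed. They are Srebf2 (chr15:82147019-82147268, plus strand), Insig1 (chr5:28071162-28071411, plus strand), Hmgcs1 (chr13:119690101-119690350, plus strand), Cyp51 (chr5:4104698-4104947, minus strand) and Nsdhl (chrX:72918271-72918520, plus strand). They are written 5′ to 3′ on the strand of the gene, and capitals mark CCAAT or the same letters on the reverse strand (ATTGG). They also mark CACGTG and, on either strand, the SRE letters TCACNCCAC or the looser TCACNCNAC.
Srebf2: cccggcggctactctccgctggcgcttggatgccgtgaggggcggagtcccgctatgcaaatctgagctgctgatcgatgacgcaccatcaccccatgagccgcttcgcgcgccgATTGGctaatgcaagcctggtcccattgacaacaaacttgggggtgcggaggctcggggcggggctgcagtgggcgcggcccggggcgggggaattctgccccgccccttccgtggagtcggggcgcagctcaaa
Insig1: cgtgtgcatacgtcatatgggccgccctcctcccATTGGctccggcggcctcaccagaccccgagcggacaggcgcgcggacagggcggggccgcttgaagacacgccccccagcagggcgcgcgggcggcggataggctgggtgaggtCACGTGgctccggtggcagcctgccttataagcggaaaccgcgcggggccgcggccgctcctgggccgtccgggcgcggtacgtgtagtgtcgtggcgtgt
Hmgcs1: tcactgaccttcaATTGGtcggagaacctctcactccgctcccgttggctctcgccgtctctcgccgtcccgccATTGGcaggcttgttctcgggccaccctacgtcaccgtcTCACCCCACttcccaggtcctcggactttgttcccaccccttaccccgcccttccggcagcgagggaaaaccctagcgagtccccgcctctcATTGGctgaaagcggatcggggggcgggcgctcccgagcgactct
Cyp51: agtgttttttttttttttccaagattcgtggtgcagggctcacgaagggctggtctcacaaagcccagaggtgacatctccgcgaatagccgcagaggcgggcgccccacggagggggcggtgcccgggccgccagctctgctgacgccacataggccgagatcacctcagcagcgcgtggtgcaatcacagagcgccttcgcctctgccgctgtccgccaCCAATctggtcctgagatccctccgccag
Nsdhl: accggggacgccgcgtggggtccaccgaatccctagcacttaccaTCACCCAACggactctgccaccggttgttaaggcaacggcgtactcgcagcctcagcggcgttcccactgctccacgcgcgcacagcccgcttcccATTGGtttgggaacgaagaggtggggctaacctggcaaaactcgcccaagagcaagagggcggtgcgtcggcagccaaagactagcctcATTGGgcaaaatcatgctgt

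In these 5 promoters, the SRE letters TCACCCCAC began 137 bases before the start site of Hmgcs1, with ATTGG at 237, 176 and 45 bases before the start. Insig1 had CACGTG 101 bases before its start, and the looser SRE letters stood 205 bases before that of Nsdhl as TCACCCAAC. CCAAT on either strand was found in the promoters of 22 of the 26 members (84.6%), against 42.3% of the 17492 protein-coding genes with a promoter in the same table. It was missing in the windows of Scap, Acat2, Acaca and Abca1. The Sp1 letters GGGCGG were found in 23 members (88.5%), against 49.2% of protein-coding genes. CACGTG was found in 6 members (23.1%: Insig1, Scap, Hsd17b7, Sc5d, Dhcr7 and Abca1), against 8.91%. The exact letters TCACNCCAC were found in Hmgcs1 alone (3.85%, against 1.41%), and TCACNCNAC in Hmgcs1 and Nsdhl (7.69%, against 3.30%), so the second pattern includes every match of the first. The letters TAGGTCA, part of the element that NR1D binds, were found in Dhcr7 alone (3.85%, against 2.70%). A match is a run of letters and not a shown binding site, and a window without a match lacks only these letters. All shares count a gene once if any of its windows has a match on either strand. The protein-coding genes were taken whether or not they were expressed in these cells, whereas all 26 members passed the filter on expression. The part of this difference in the shares was not tested.

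Among the regulators, Srebf2 (Entrez Gene 20788, chr15:82147269-82205379) and Insig1 (Entrez Gene 231070, chr5:28071412-28078662) were called. Srebf2 had 23406 and 21877 normalized counts in the CPN-labelled libraries, 10760 and 12062 in the CP-labelled ones, and 16641 and 15758 in Per/Nr1d_KO. The 3 lines did not overlap, and the order ran from the CPN-labelled libraries through Per/Nr1d_KO to the CP-labelled ones. The log2 fold change against the CPN-labelled libraries was -0.99 (standard error 0.056, adjusted p = 4.8e-10) in the CP-labelled ones, a call, and -0.48 (standard error 0.055, adjusted p = 1.1e-06) in Per/Nr1d_KO, inside the limit on the fold. The chromosome 15 medians were -0.29 and 0.03, and with its median subtracted the first value became -0.70 and was no longer called. Srebf1 (Entrez Gene 20787, chr11:60199084-60224186) was ordered differently. It had 6868 and 6047 normalized counts in the CPN-labelled libraries, 4788 and 5295 in the CP-labelled ones, and 7989 and 7824 in Per/Nr1d_KO. Per/Nr1d_KO was thus the highest line for Srebf1, by 0.65 on the log2 scale against the CP-labelled libraries (standard error 0.062, adjusted p = 9.9e-08) and by 0.29 against the CPN-labelled ones (standard error 0.061, adjusted p = 0.0005), both inside the limit. The ratio of Srebf2 to Srebf1 normalized counts was 3.41 and 3.62 in the CPN-labelled libraries and between 2.01 and 2.28 in the 4 others.

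Insig1 and Insig2 encode related retention proteins of SCAP, of which Insig1 is a classical SREBP target and Insig2 is not strongly sterol-induced. Insig1 had 4612 and 4588 normalized counts in the CPN-labelled libraries, 2433 and 2561 in the CP-labelled ones, and 1740 and 1686 in Per/Nr1d_KO. It was called lower in both lines, with log2 fold changes of -0.88 (standard error 0.052, adjusted p = 7.5e-10) and -1.43 (standard error 0.053, adjusted p = 1.5e-12). Tested against the limit itself with glmTreat, the first of these was not called (adjusted p = 0.2). Insig2 (Entrez Gene 72999, chr1:121304353-121332662) had 2750 and 2665 normalized counts in the CPN-labelled libraries, 4344 and 4189 in the CP-labelled ones, and 3473 and 3783 in Per/Nr1d_KO. It was the only member of the 30 tested whose CPN-labelled libraries lay below all 4 others (21.0% of all genes tested did), and its log2 fold changes of 0.66 (adjusted p = 3.7e-08) and 0.42 (adjusted p = 4.3e-06) stayed inside the limit. With the chromosome 1 medians of -0.03 and 0.28 subtracted they were 0.69 and 0.14. The ratio of Insig1 to Insig2 normalized counts was 1.68 and 1.72 in the CPN-labelled libraries, 0.560 and 0.611 in the CP-labelled ones, and 0.501 and 0.446 in Per/Nr1d_KO. Scap (Entrez Gene 235623, chr9:110333288-110384949), the escort of SREBP, was counted at 7805 and 7336 (CPN-labelled), 9390 and 9718 (CP-labelled) and 6729 and 6620 (Per/Nr1d_KO). None of its differences was called, and each changed sign once its chromosome was taken into account. The log2 fold changes of 0.34, -0.18 and -0.52 became -0.04, 0.28 and 0.32 with the chromosome 9 medians of 0.38, -0.46 and -0.84 subtracted. Of the bases in Scap exons, 18.6% also lie in exons of 5830462I19Rik on the opposite strand.

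**Figure D3:**
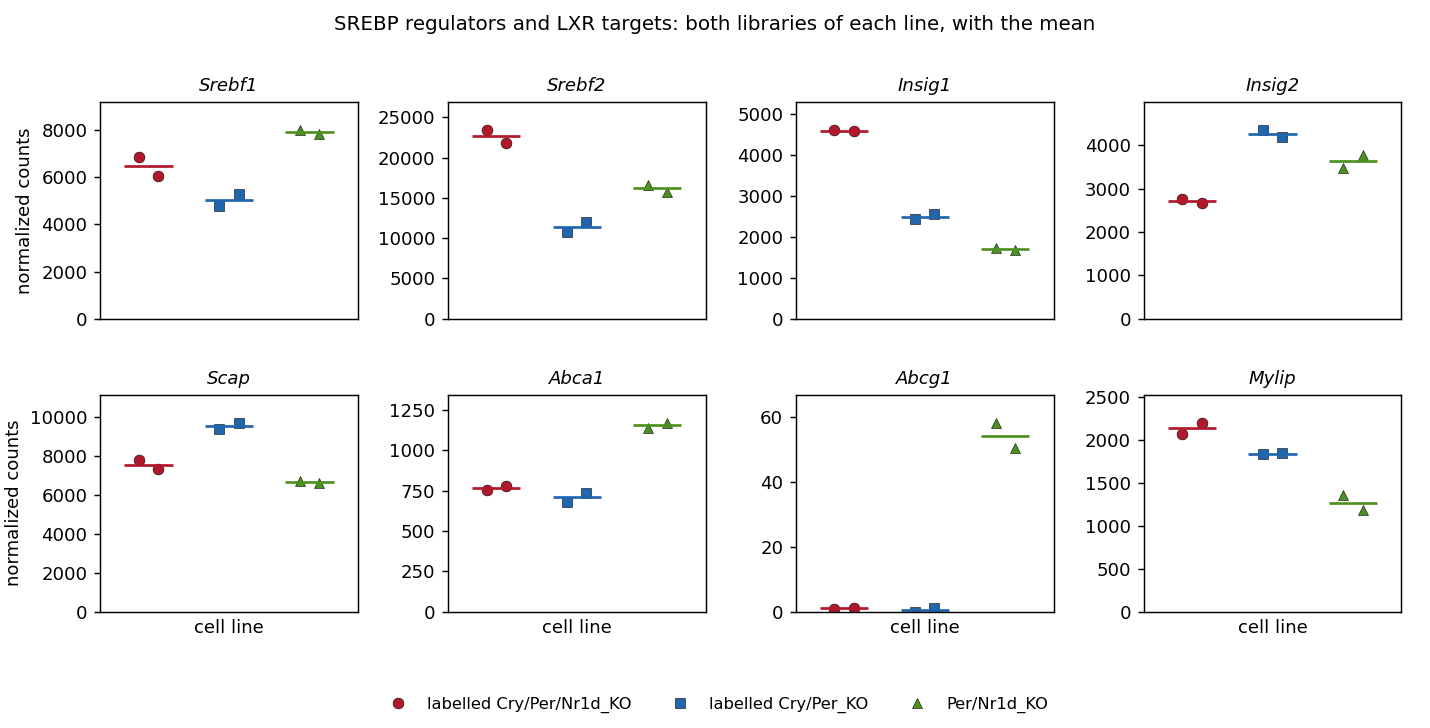
Normalized counts (y axis, from 0) of the 5 regulators of SREBP and the 3 LXR targets; each point is 1 library and each line the mean of the 2 libraries of a cell line. Insig1 and Insig2 have opposite orders between the CPN-labelled libraries and the 4 others, and Abcg1 has 50.5 and 58.3 normalized counts in Per/Nr1d_KO against at most 1.11 elsewhere.

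The 7 members of the mevalonate steps turn acetyl-CoA into farnesyl diphosphate. All 7 were lower in both other lines than in the CPN-labelled libraries at an adjusted p under 0.05, and 5 of them were called in the CP-labelled libraries and 2 in Per/Nr1d_KO. Hmgcs1 (Entrez Gene 208715, chr13:119690351-119708260), which makes HMG-CoA, had 13502 and 13363 normalized counts in the CPN-labelled libraries, 7465 and 6990 in the CP-labelled ones, and 9182 and 9440 in Per/Nr1d_KO. Its log2 fold changes were -0.89 (standard error 0.045, adjusted p = 1.5e-10), a call, and -0.53 (standard error 0.045, adjusted p = 3.8e-08), or -1.25 and -0.75 with the chromosome 13 medians of 0.35 and 0.22 subtracted. Of its stretches of 50 bases, the read length, 12.6% occur in Gm48342 on the opposite strand. Fdps (Entrez Gene 110196, chr3:89093588-89101967), the farnesyl diphosphate synthase, differed most between the lines among these 7. It had 2986 and 2882 normalized counts in the CPN-labelled libraries, 759 and 678 in the CP-labelled ones, and 1916 and 1913 in Per/Nr1d_KO. Fdps was 4.09-fold lower in the CP-labelled libraries (-2.03, standard error 0.068, adjusted p = 1.6e-12) and 1.53-fold lower in Per/Nr1d_KO (-0.62, standard error 0.062, adjusted p = 2.6e-07). The chromosome 3 medians were -0.65 and 0.24, and with them subtracted the values became -1.39 and -0.85. Between Per/Nr1d_KO and the CP-labelled libraries, the log2 fold change of Fdps was 1.42 (standard error 0.069, adjusted p = 2.7e-11), and with the chromosome 3 median of 0.88 subtracted it was 0.54 and no longer called. Counts of Fdps may depend on how shared reads were assigned. In the GENCODE annotation, exons of Gm43738 on the same strand cover 77.4% of the exon bases of Fdps. Of the stretches of 50 bases of Fdps, 64.1% occur in other annotated genes. No row of the deposited counts was matched to Gm43738 by symbol.

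Pmvk, the phosphomevalonate kinase on the same chromosome, had 2438 and 2306, 1337 and 1188, and 1785 and 1827 normalized counts, given here and below as CPN-labelled, CP-labelled and Per/Nr1d_KO. Its log2 fold change of -0.91 in the CP-labelled libraries (adjusted p = 1.0e-08) became -0.27 with the chromosome median subtracted and was then no longer called. Mvd, the decarboxylase that makes isopentenyl diphosphate, had 3151 and 2753, 1569 and 1634, and 1966 and 2009 normalized counts, with log2 fold changes of -0.88 (called) and -0.57. Without the first CPN-labelled library, the change of Mvd in the CP-labelled libraries was -0.78 and was not called. Mvk, the mevalonate kinase, had 3874 and 3473, 2141 and 2536, and 2103 and 2040 normalized counts and was the only one of the 3 called in Per/Nr1d_KO (-0.83, adjusted p = 7.5e-08). Without the same library, this value was -0.75 and was not called. Acat2, the cytosolic thiolase that starts the route, had 5369 and 4914, 2798 and 2877, and 2971 and 3165 normalized counts, with log2 fold changes of -0.86 (called, but -0.79 and not called without the first CPN-labelled library, and -0.73 and not called with the chromosome 17 median subtracted) and -0.74. Of its stretches of 50 bases, 39.1% occur in Acat3 or Tcp1. Idi1, the isopentenyl diphosphate isomerase, was counted at low levels, with 161 and 143, 104 and 122, and 74.8 and 67.1 normalized counts. It was called lower in Per/Nr1d_KO (-1.12, standard error 0.16, adjusted p = 1.4e-05) and not in the CP-labelled libraries (-0.43, standard error 0.15, adjusted p = 0.016), values that were -1.34 and -0.78 with the chromosome 13 medians subtracted, and 28.6% of its stretches of 50 bases occur in other annotated genes. With DESeq2, the change of Idi1 in the CP-labelled libraries was -0.42 and did not pass the test (adjusted p = 0.13).

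The 11 members of the squalene and sterol steps turn farnesyl diphosphate into cholesterol. All 11 were lower in both other lines at an adjusted p under 0.05, 8 were called in the CP-labelled libraries and 6 in Per/Nr1d_KO, and their median log2 fold changes were -1.03 and -0.94. Sqle (Entrez Gene 20775, chr15:59315092-59331193), the squalene epoxidase and a rate-limiting step, had 16218 and 15480 normalized counts in the CPN-labelled libraries, 5347 and 5570 in the CP-labelled ones, and 7476 and 7556 in Per/Nr1d_KO. It was 2.90-fold lower in the CP-labelled libraries (log2 fold change -1.54, standard error 0.045, adjusted p = 4.4e-13) and 2.11-fold lower in Per/Nr1d_KO (-1.08, standard error 0.045, adjusted p = 5.2e-12). Lss (Entrez Gene 16987, chr10:76531565-76557139), which closes squalene epoxide into lanosterol, had 7488 and 6852, 3045 and 3187, and 3263 and 3338 normalized counts. The other 2 lines did not differ in Lss beyond their spread (log2 fold change 0.08, standard error 0.055, adjusted p = 0.17), and both were called lower than the CPN-labelled libraries (-1.20 and -1.12).

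The genes of lanosterol demethylation were also highest in the CPN-labelled libraries. Cyp51 (Entrez Gene 13121, chr5:4080674-4104697), the lanosterol 14-demethylase, had 14116 and 14767 normalized counts in the CPN-labelled libraries, 5242 and 5444 in the CP-labelled ones, and 6984 and 7157 in Per/Nr1d_KO. Its log2 fold changes were -1.43 (standard error 0.045, adjusted p = 9.6e-13) and -1.03 (standard error 0.045, adjusted p = 9.5e-12). Msmo1 (Entrez Gene 66234, chr8:64718123-64733578), the C4-methyl sterol oxidase, had 13041 and 13092, 5534 and 5591, and 5108 and 5356 normalized counts, and was 2.35-fold and 2.50-fold lower in the CP-labelled libraries and in Per/Nr1d_KO. Nsdhl (Entrez Gene 18194, chrX:72918521-72958528), its partner dehydrogenase, had 4085 and 4041, 1960 and 2006, and 2110 and 2138 normalized counts and was called in both (-1.03 and -0.94). Neither Msmo1 (adjusted p = 0.083) nor Nsdhl (adjusted p = 0.096) passed the test between Per/Nr1d_KO and the CP-labelled libraries. Together with Insig1, these 5 genes (Sqle, Lss, Cyp51, Msmo1 and Nsdhl) were the members called lower in both lines, 6 of 30 (20%), against 2.02% of all genes tested. With glmTreat, Insig1 was not called in the CP-labelled libraries. With chromosome medians subtracted, the log2 fold changes of these 5 enzymes lay between -1.52 and -0.90.

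The last steps of the route separated the other 2 lines. Dhcr7 (Entrez Gene 13360, chr7:143823167-143848410), which makes cholesterol from 7-dehydrocholesterol, had 2265 and 2140 normalized counts in the CPN-labelled libraries, 618 and 640 in the CP-labelled ones, and 1717 and 1589 in Per/Nr1d_KO. It was 3.50-fold lower in the CP-labelled libraries (log2 fold change -1.81, standard error 0.071, adjusted p = 8.6e-12) and 1.34-fold lower in Per/Nr1d_KO (-0.42, standard error 0.064, adjusted p = 2.8e-05). Sc5d (Entrez Gene 235293, chr9:42251592-42264300), the desaturase just before it, had the larger difference in Per/Nr1d_KO. Its normalized counts were 7380 and 7831, 6263 and 6475, and 2799 and 2808, 1.19-fold lower in the CP-labelled libraries (-0.26, standard error 0.047, adjusted p = 0.00016) and 2.71-fold lower in Per/Nr1d_KO (-1.44, standard error 0.049, adjusted p = 5.1e-13). With the chromosome 9 medians of 0.38 and -0.46 subtracted, these values of Sc5d were -0.63 and -0.98, closer to each other. Those of Dhcr7 were -1.54 and -0.31 with the chromosome 7 medians of -0.27 and -0.11 subtracted. Between Per/Nr1d_KO and the CP-labelled libraries, the log2 fold change was 1.39 for Dhcr7 (standard error 0.071, adjusted p = 5.6e-11) and -1.18 for Sc5d (standard error 0.049, adjusted p = 4.3e-12). The chromosome 7 median of 0.15 left Dhcr7 at 1.24 in this comparison, whereas the chromosome 9 median of -0.84 left Sc5d at -0.35, no longer called.

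Of the other members of these steps, Fdft1, the squalene synthase, had 3411 and 3195, 1746 and 1737, and 2720 and 2551 normalized counts. It was called in the CP-labelled libraries (-0.92, adjusted p = 1.6e-09) and not in Per/Nr1d_KO (-0.33, adjusted p = 8.6e-05), where subtracting the chromosome 14 median of 0.52 brought it to -0.84, a call. Ctsb exons on the opposite strand overlap 20.9% of its exon bases, and Ctsb was called higher in Per/Nr1d_KO (0.84, but 0.32 and not called with the same median subtracted). Hsd17b7, a sterol ketoreductase, had 2912 and 3015, 1589 and 1571, and 1763 and 1841 normalized counts and was called in the first comparison (-0.91) and not the second (-0.72), where it passed the limit with the chromosome 1 median of 0.28 subtracted. Ebp, the sterol isomerase, and Tm7sf2, a sterol reductase, were the 2 enzymes of the mevalonate and sterol steps called in neither. Ebp had 3434 and 3266, 2418 and 2611, and 2721 and 2797 normalized counts, and Tm7sf2 had 348 and 333, 245 and 269, and 253 and 286. Of the stretches of 50 bases of Tm7sf2, 19.1% occur in Vps51. For Ebp and Tm7sf2, too, both CPN-labelled libraries lay above the 4 others, as for all 18 enzymes of the mevalonate and sterol steps.

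**Figure D4:**
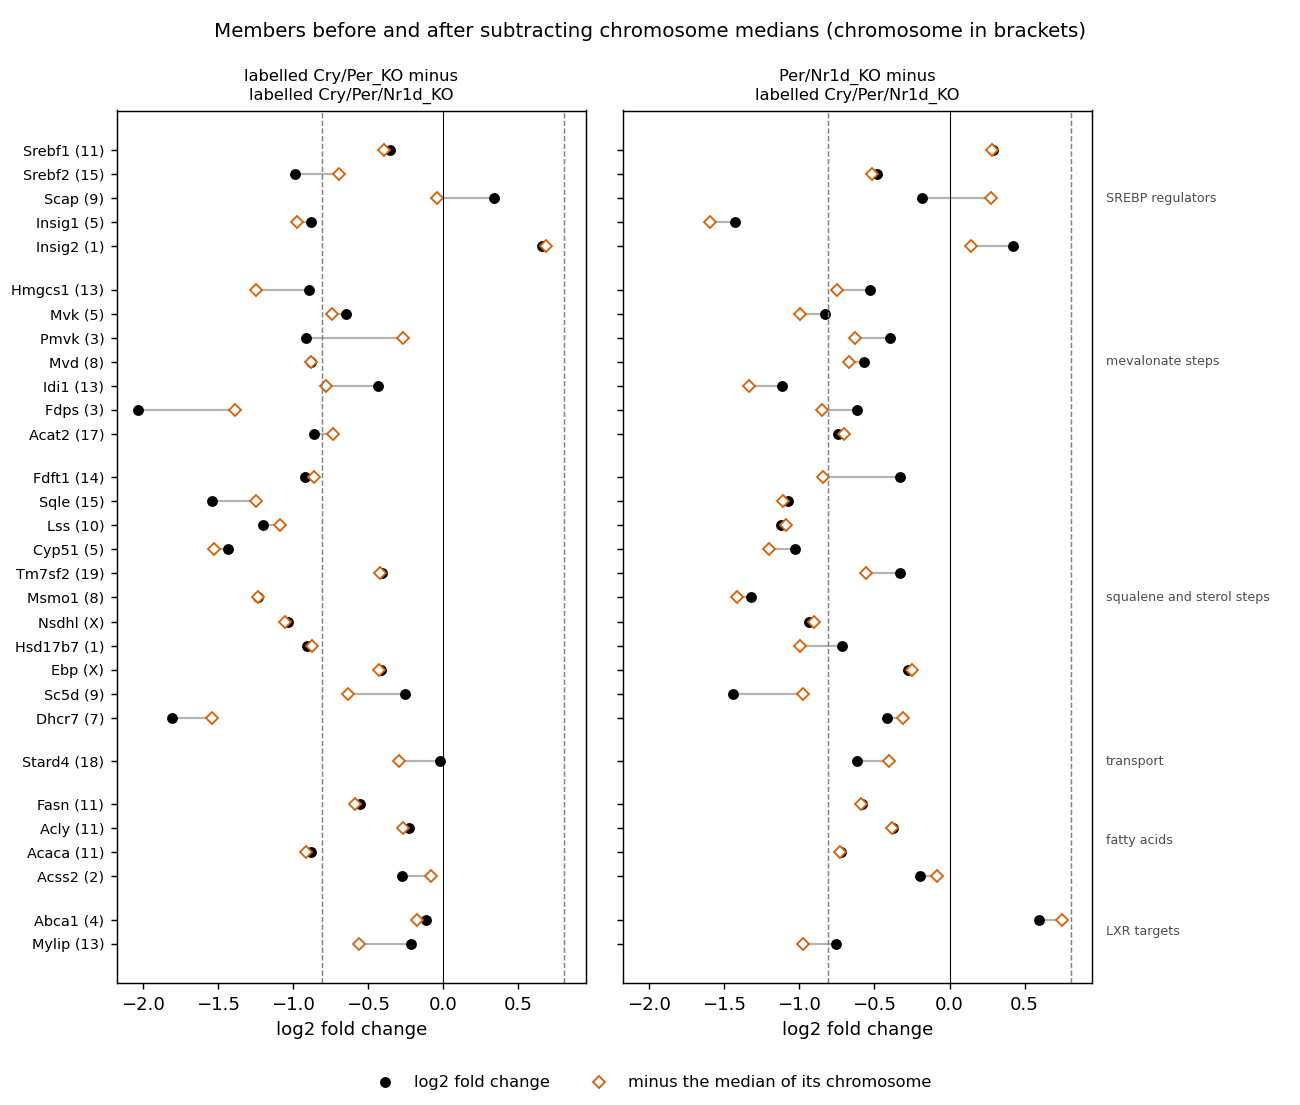
Log2 fold change of each member (black) and the same value minus the median of the genes tested on its chromosome (open diamonds), for the CP-labelled libraries and for Per/Nr1d_KO, each against the CPN-labelled libraries; dashed lines mark the limit on the fold. Scap crosses 0 in both panels, and 13 members pass the dashed line on the left in each panel after the subtraction, against 16 and 9 before.

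The 4 members of acetyl-CoA supply and fatty acid synthesis were also highest in the CPN-labelled libraries, by less. Fasn (Entrez Gene 14104, chr11:120805958-120825166), the fatty acid synthase, had 39539 and 37229 normalized counts in the CPN-labelled libraries, 25287 and 27097 in the CP-labelled ones, and 25876 and 25387 in Per/Nr1d_KO. Its log2 fold changes of -0.55 (standard error 0.047, adjusted p = 5.3e-08) and -0.58 (standard error 0.047, adjusted p = 2.1e-08) stayed inside the limit, and the other 2 lines did not differ in it beyond their spread (adjusted p = 0.55). Acaca, the acetyl-CoA carboxylase, was the only one of the 4 called, with 3605 and 3693, 2071 and 1893, and 2200 and 2219 normalized counts and log2 fold changes of -0.88 (called) and -0.72. Of its stretches of 50 bases, 38.1% occur in other annotated genes. Acly, the citrate lyase, had 31212 and 29445, 25449 and 26312, and 23224 and 23561 normalized counts, and Acss2, the cytosolic acetyl-CoA synthetase, had 840 and 776, 623 and 712, and 752 and 668. Acly was 1.17-fold and 1.30-fold lower, and Acss2 in Per/Nr1d_KO did not pass the test (-0.20, adjusted p = 0.059). Stard4, which carries cholesterol between membranes, had 4225 and 4377, 4253 and 4222, and 2709 and 2901 normalized counts. It did not differ between the CPN-labelled and CP-labelled libraries beyond their spread (-0.02, standard error 0.050, adjusted p = 0.71), and it was 1.53-fold lower in Per/Nr1d_KO (-0.61, adjusted p = 3.0e-08), inside the limit. With the chromosome 18 medians of 0.28 and -0.21 subtracted, these values were -0.30 and -0.40.

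Of the 3 LXR targets, Abca1 and Abcg1 were highest in Per/Nr1d_KO, unlike the enzymes, and Mylip was highest in the CPN-labelled libraries. Abca1 (Entrez Gene 11303, chr4:53030789-53159988), which moves cholesterol to apolipoproteins, had 752 and 781 normalized counts in the CPN-labelled libraries, 680 and 734 in the CP-labelled ones, and 1139 and 1169 in Per/Nr1d_KO. It was thus highest in Per/Nr1d_KO, with log2 fold changes of 0.59 (standard error 0.074, adjusted p = 2.8e-06) and 0.71 (standard error 0.074, adjusted p = 3.3e-07) against the CPN-labelled and the CP-labelled pair, inside the limit. With the median of chromosome 4 subtracted, the second value was 0.90 and was called. Abcg1 (Entrez Gene 11307, chr17:31057694-31117984), a second sterol exporter, was counted almost only in Per/Nr1d_KO. It had 110 counts in the 2 libraries of this line, 2 in the CPN-labelled ones and 1 in the CP-labelled ones. Scaled to library size, these are ratios of 54.2 (95% exact binomial interval 14.7 to 453) and 103 (18.0 to 4087), intervals that cover counting error only. Abcg1 lay under the filter on expression and is given here without a test. Mylip (Entrez Gene 218203, chr13:45389742-45411940), a ubiquitin ligase that degrades lipoprotein receptors, was lowest in Per/Nr1d_KO, with 2070 and 2198, 1834 and 1847, and 1352 and 1180 normalized counts. Its log2 fold change there was -0.76 (adjusted p = 1.1e-07) against the CPN-labelled libraries and -0.55 (adjusted p = 3.6e-06) against the CP-labelled ones, and without the first Per/Nr1d_KO library the former was -0.85 and called. With the chromosome 13 median of 0.22 subtracted it was -0.98 and called, and the value between the CP-labelled and CPN-labelled libraries went from -0.21 to -0.56. The adipocyte marker Fabp4 also stood apart in Per/Nr1d_KO, with 1468 and 1579 normalized counts against 109 to 185 elsewhere, while Adipoq and Plin1 were at or near 0 in every library. The 3 adipocyte markers summed to between 1468 and 1580 in Per/Nr1d_KO, 175 to 193 in the CPN-labelled libraries and 116 to 147 in the CP-labelled ones, and their part in these results was not tested.

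Per kilobase of exons (the union of the exons of GENCODE vM21), the most abundant members in the CPN-labelled libraries were Acly with 6579, Msmo1 with 6393 and Sqle with 5747 mean normalized counts per kb. Srebf2 had 4460 and Srebf1 1502 per kb there, and Insig1 had 1706 against 917 for Insig2. In Per/Nr1d_KO this order of the INSIG genes was the other way, with 635 per kb for Insig1 and 1229 for Insig2, as in the CP-labelled libraries with 926 and 1445. The lowest members per kb were Abcg1, Idi1 with 50.2 and Abca1 with 74.7 in the CPN-labelled libraries.

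**Figure D5:**
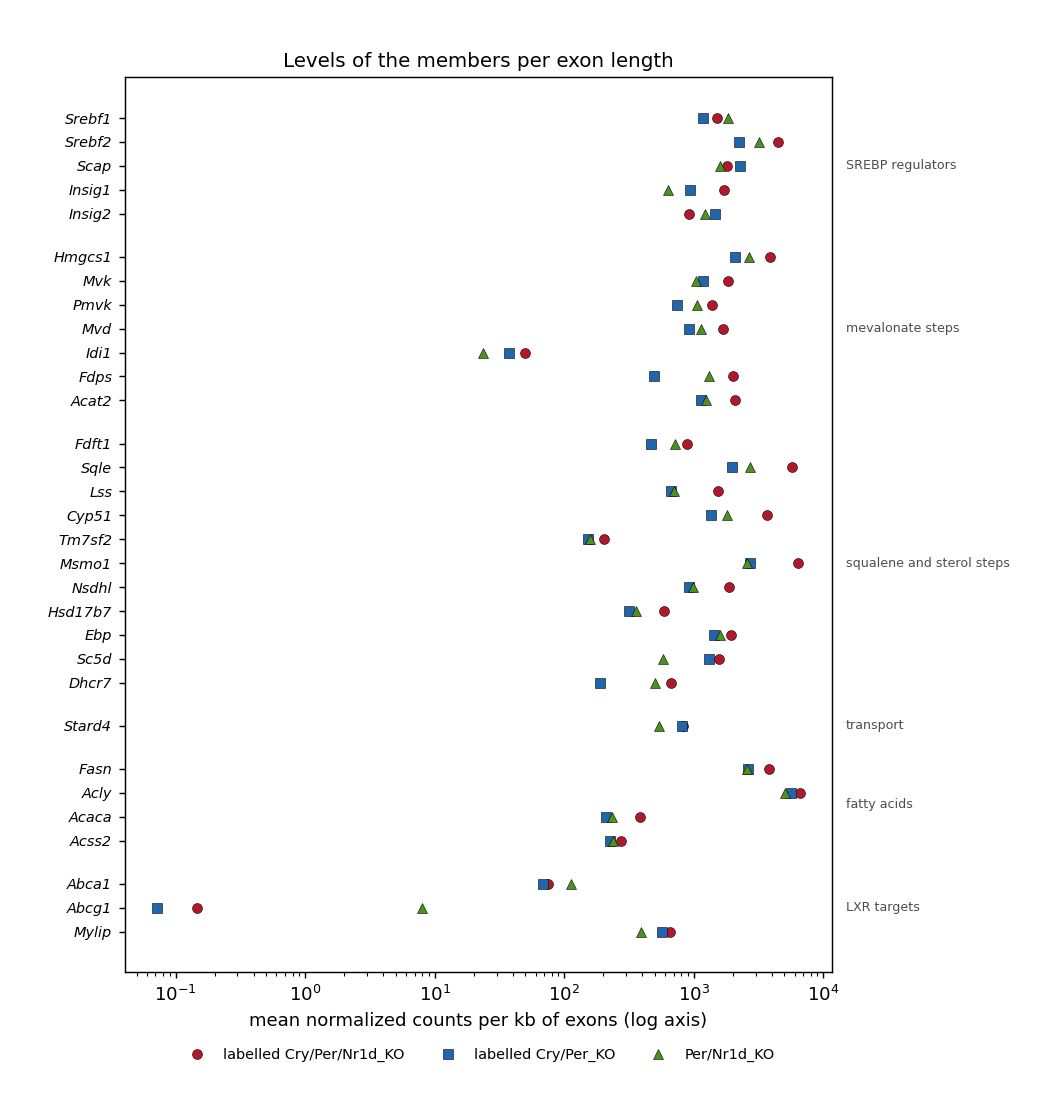
Mean normalized counts per kb of exons (x axis, log scale) of all 31 members in the 3 cell lines, 2 libraries per line, grouped by role. The enzymes of the squalene and sterol steps span from Tm7sf2 at 201 to Msmo1 at 6393 per kb in the CPN-labelled libraries, and Insig1 and Insig2 exchange their order in the other lines.

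A further 49 genes of the pathway and of its neighbours, outside the 31 members, were counted in 5 lists, and 44 of them were tested. Over all 5 lists, 10 genes were called lower and 0 higher in the CP-labelled libraries against the CPN-labelled ones, and 9 lower and 5 higher in Per/Nr1d_KO (1 of the 5, Smpdl3a, is described below without a test), with medians of -0.07 and -0.05. Of all genes tested, 8.95% were called lower and 7.86% higher in the former comparison, and 9.35% and 11.3% in the latter. The list with the most genes called lower was fatty acid and glycerolipid synthesis, with 6 of 12 in the CP-labelled libraries and 4 in Per/Nr1d_KO (5 and 3 with chromosome medians subtracted). In it, Elovl6, which lengthens palmitate, had 9433 and 9633, 3586 and 3626, and 4046 and 3930 normalized counts (log2 fold changes -1.40 and -1.26, the first of which was -0.76 and not called with the chromosome 3 median subtracted), and the acyl-CoA synthetase gene Acsl3 had log2 fold changes of -1.10 and -0.85. The desaturase genes Fads1 (-0.89 and -0.19) and Fads2 (-1.08 and -0.01) were called lower only in the CP-labelled libraries, and against these Fads2 was called higher in Per/Nr1d_KO (1.07, adjusted p = 8.3e-12). Gpam, which starts glycerolipid synthesis, was called higher in Per/Nr1d_KO (0.94), but was 0.72 and not called with the chromosome 19 median of 0.23 subtracted. Of the 6 genes tested for other steps of sterol synthesis, 1 was called lower in the CP-labelled libraries and 2 in Per/Nr1d_KO, among them the mitochondrial thiolase Acat1 (0.54 and -1.20), whose values were 0.16 and -0.74, not called, with the chromosome 9 medians of 0.38 and -0.46 subtracted.

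Genes of sterol uptake, trafficking and esterification were called in both directions, with 2 of 10 lower in the CP-labelled libraries, and 3 lower and 2 higher in Per/Nr1d_KO. The sterol regulated Tmem97 was called lower in the former (-1.26) and not in the latter (-0.33). The 2 genes called higher in Per/Nr1d_KO were lysosomal. Npc2, which hands cholesterol out of the lysosome, had 37429 and 37101 normalized counts there against 13154 to 16497 in the 4 others, and Lipa, the lysosomal lipase, had 10194 and 10131 against 4674 to 7846. Soat1, which esterifies cholesterol, and Nceh1, which hydrolyses its esters, were called lower in Per/Nr1d_KO (-1.04 and -0.89). None of the 9 genes of SREBP processing and sterol-dependent degradation was called in any comparison. At an adjusted p under 0.05 at any fold, 2 were higher and 2 lower in the CP-labelled libraries than in the CPN-labelled ones. Of all genes tested, 38.1% and 38.3% were. In Per/Nr1d_KO against the CPN-labelled libraries, 4 were higher and 3 lower, against 38.7% and 37.1% of all genes tested. Among the 9 LXR and RXR genes and further LXR targets, 7 were measured at a mean of at least 100 normalized counts, and those below it were not tested. Smpdl3a had 733 and 664 normalized counts in Per/Nr1d_KO against 48.1 to 64.6 elsewhere. It reached that mean only through Per/Nr1d_KO and is given without a test. Of the other genes, only Pltp, the phospholipid transfer protein, was called, higher in Per/Nr1d_KO (1.08) and lower in the CP-labelled libraries (-0.82, but -0.63 and not called with the chromosome 2 median of -0.19 subtracted). At an adjusted p under 0.05 at any fold, 2 of the 7 were lower in Per/Nr1d_KO than in the CPN-labelled libraries, against 37.1% of all genes tested. Another 3 were higher, against 38.7%, among them Smpdl3a, which the filter let in only through Per/Nr1d_KO.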

How the data were processed

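Poly-A RNA was sequenced with a stranded kit as 50-base single-end reads. STAR (mapping to mm10) and featureCounts were the authors' tools, and the deposited values are whole-number counts per gene without normalization, 1 set per library (53764390 to 85927236 counts, median 62471572). The strand setting and the treatment of multi-mapping reads are not given in the sources used here. The authors' tables of their own comparisons (DESeq2 1.22.2: baseMean, log2 fold changes, standard errors and p-values) were not used. Symbols and coordinates came from RefSeq for GRCm38.p6, the assembly of mm10 (25275 of 27179 genes, 93.0%).

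All 6 libraries went into one quasi-likelihood fit (edgeR 4.0.16, limma 3.58.1, R 4.3.3) with TMM scaling, 3 groups and no replicate term. Tests covered genes whose mean reached 100 normalized counts. Calls needed a Benjamini-Hochberg adjusted p under 0.05 and a log2 fold change beyond 0.81, the study's own limits on expression and fold. Standard errors are the log2 fold change divided by the square root of F. The common biological coefficient of variation was 0.0393. With 2 libraries per line each spread rests on 2 values. The procedure was tested on simulated data. Overlaps with other genes' exons and 50-base stretches came from GENCODE vM21. The members and lists were chosen with earlier results of these data known. The rule for names took all members, the targeted genes, and from the lists of further genes those called in any comparison, of which the text gives part.

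Alternatives were DESeq2 1.42.0, median-of-ratios size factors, other expression filters, no limit on the fold, glmTreat, the compared groups alone, a replicate block, leaving out each library and subtracting chromosome medians. Leaving out members that share over 10% of their bases with other genes was chosen after seeing the data.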

Additional observations from a re-analysis of the deposited data

How the results depend on the processing

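Without the limit on the fold, 2 members were higher and 26 lower in the CP-labelled libraries against the CPN-labelled ones, 3 and 26 in Per/Nr1d_KO against the latter, and 14 and 9 in Per/Nr1d_KO against the CP-labelled ones. edgeR's glmTreat, which tests against that limit itself, called 8 members lower in the first comparison in place of 16, and 7 in place of 9 in the second (796 and 914 of the 11934 genes tested). The 8 were Srebf2, Fdps, Sqle, Lss, Cyp51, Msmo1, Nsdhl and Dhcr7. Insig1, Hmgcs1, Pmvk, Mvd, Acat2, Fdft1, Hsd17b7 and Acaca lost this call, at unchanged log2 fold changes. With no expression filter, or with a mean of at least 10, 1 member was higher in Per/Nr1d_KO against the CPN-labelled libraries. This is Abcg1, which reaches a mean of 10 only through Per/Nr1d_KO, so under that filter it had to differ. Without the members that share over 10% of their bases, chosen after seeing the data, 11 of the 21 members left (52.4%, in place of 53.3%) and 8 (38.1%, in place of 30%) were lower in the first 2 comparisons, and 1 (Dhcr7) in place of 2 was higher in Per/Nr1d_KO against the CP-labelled libraries. Leaving out each library in turn gave 14 to 16, 7 to 10 and 1 members lower in the 3 comparisons. A line left with 1 library was assumed to vary like the others, and Idi1 fell under the filter without the first CPN-labelled library.

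The replicate numbers are not stated to mark a shared day. Deviations of same-numbered libraries correlated at -0.21, -0.10 and -0.02 between lines. With the numbers as a replicate block, the members called lower were 16, 9 and 1 and those called higher 0, 0 and 2, as without it. DESeq2, other size factors, the compared groups alone and the other filters changed the direction or call of none of the 30 members. Subtracting chromosome medians gave 13, 13 and 0 members lower (846, 1061 and 1376 of the 11934 genes tested). It gave 0, 0 and 2 higher (794, 1267 and 1390 of the 11934), with Abca1 in place of Fdps in the third comparison. It turned the direction of Scap in the 3 comparisons (-0.041, 0.28 and 0.32), and between Per/Nr1d_KO and the CP-labelled libraries that of Pmvk (-0.36), Fdft1 (-0.026), Lss (-0.021), Tm7sf2 (-0.14), Hsd17b7 (-0.071), Acat2 (-0.027) and Fasn (0.00062). Leaving out 1 library turned 5 values near 0, for Stard4 in the CP-labelled libraries (range -0.047 to 0.0041) and, between Per/Nr1d_KO and these, Tm7sf2 (-0.020 to 0.15), Fasn (-0.080 to 0.019) and Acss2 (-0.012 and -0.0024, up to 0.18). The cause was not tested.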
